A study of Mus musculus with 12 samples.

Results

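The genes of cytotoxic granules and natural killer (NK) receptors were followed in tumors grown from LLC1 mouse Lewis lung carcinoma cells, under 4 treatments. The 10 genes were chosen by symbol from a fixed list: the granule effectors Gzma, Gzmb, Gzmk, Prf1 and Nkg7, the receptors Klrk1, Klrd1, Ncr1 and Klrb1c, and the transcription factor Eomes. Earlier results of these data were known at the choice, so medians of the 10 genes beside those of all genes are descriptions. All 10 were found among the 34678 symbols of the tables. All 10 also passed the filter on low values, a mean of at least 0.1 FPKM (fragments scaled to gene length and library depth) over the 12 tumors, as did 15350 genes in all.

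The tumor cells carried a short hairpin against Lkb1 (Stk11), so all 4 arms share the knockdown. No tumor without the hairpin was analysed here, and Stk11 lay between 7.90 and 11.5 FPKM. The cells were injected under the skin of C57BL/6 mice of both sexes, bought at 5 to 8 weeks of age. The arms, with 3 tumors each, were vehicle, palbociclib (an inhibitor of CDK4 and CDK6, 100 mg/kg by mouth), anti-PD-1 (a blocking antibody, clone RMP1-14, 200 μg per mouse) and the combination of both. Control mice were given IgG of clone 2A3, and tumors were taken after 2 weeks of treatment. The comparisons ask how the CDK4/6 inhibitor, the checkpoint antibody and their combination move cytotoxic transcripts in LKB1-deficient tumors. The labels do not tie the replicate numbers to litters, cages or days, so p-values measure the spread between these tumors.

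Depth ran from 14869426 to 20281052 fragments per tumor. The whole-tumor samples differed in the tissue they held: by the mean of log2 values, the 4 skeletal muscle markers were highest in combination replicate 2, the 4 skin markers in palbociclib replicate 2, and the 4 fat markers in combination replicate 1. By summed FPKM, muscle markers were as high in palbociclib replicate 3 (137 FPKM) as in combination replicate 2 (133 FPKM). The tumor label was checked with epithelial markers. Krt8 lay between 62.0 and 276 FPKM in all tumors, whereas Krt18, Krt19 and Epcam had medians of 0.235, 0.0470 and 0.162 FPKM. In bulk tumor RNA, fewer cytotoxic cells and less RNA per cell cannot be told apart.

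Cytotoxic T cells and NK cells kill by releasing granules at the contact with a target cell. Perforin, the product of Prf1, opens the target membrane, and granzymes enter and cleave proteins inside. NK cells start this program through activating receptors such as NKp46 (Ncr1) and NKG2D (Klrk1), which is also carried by CD8 T cells. CD94 (Klrd1) pairs with NKG2 chains, and NK1.1 (Klrb1c) is the classical mouse NK marker in the C57BL/6 strain. The T-box factor Eomes drives the effector program in both lineages.

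The genes lie on 6 chromosomes (GRCm38, GENCODE M21). Gzmb is at chr14:56258838-56262260, at one end of a cluster with Gzmc, Gzmd, Gzme, Gzmf, Gzmg and Gzmn that spans chr14:56117626-56262260 on the minus strand. Gzma (chr13:113093825-113100981) and Gzmk (chr13:113171608-113225908) lie close together on chromosome 13. The receptor genes Klrk1 (chr6:129610323-129623864), Klrd1 (chr6:129591782-129598775) and Klrb1c (chr6:128778485-128789215) are in the NK gene complex of chromosome 6. Ncr1 (chr7:4337724-4345164) and Nkg7 (chr7:43437073-43438249) are far apart on chromosome 7, Prf1 is at chr10:61297833-61304680 and Eomes at chr9:118478212-118486132. Of 75-base windows of their transcripts, 8 of the 10 genes shared none with a transcript of another gene. Klrb1c shared 13.2%, mostly with the overlapping gene model Gm44511, and Eomes 1.08% with a model on the opposite strand, so reads of these genes may be split or shared.

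Promoters are shown for the pair whose levels ran closest together over the tumors, Gzmb and Prf1, and for the NK receptors Ncr1 and Klrk1. Each stretch runs from 250 bases before to 50 bases after the RefSeq start (GRCm38.p6), 5′ to 3′ on the strand of the gene. The positions are chr14:56262285-56262584 (minus) for Gzmb, chr10:61297586-61297885 (plus) for Prf1, chr7:4337465-4337764 (plus) for Ncr1 and chr6:129623815-129624114 (minus) for Klrk1. Capitals mark matches to letters bound by RUNX (TGTGGTT), AP-1 (TGANTCA), ETS (AGGAAGT) or T-box factors (TCACACC), searched on both strands with no overlap among the matches shown.
Gzmb: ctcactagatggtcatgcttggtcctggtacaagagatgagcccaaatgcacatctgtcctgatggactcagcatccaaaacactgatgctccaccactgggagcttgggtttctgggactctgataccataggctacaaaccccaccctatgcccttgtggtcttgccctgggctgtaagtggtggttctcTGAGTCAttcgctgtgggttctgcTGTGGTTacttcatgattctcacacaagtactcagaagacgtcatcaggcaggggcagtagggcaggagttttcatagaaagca
Prf1: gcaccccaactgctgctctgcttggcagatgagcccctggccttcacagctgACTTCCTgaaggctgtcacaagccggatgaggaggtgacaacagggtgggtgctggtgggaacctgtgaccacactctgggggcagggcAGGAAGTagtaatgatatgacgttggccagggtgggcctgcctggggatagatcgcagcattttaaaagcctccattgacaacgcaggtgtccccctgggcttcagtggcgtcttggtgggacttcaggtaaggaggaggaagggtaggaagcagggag
Ncr1: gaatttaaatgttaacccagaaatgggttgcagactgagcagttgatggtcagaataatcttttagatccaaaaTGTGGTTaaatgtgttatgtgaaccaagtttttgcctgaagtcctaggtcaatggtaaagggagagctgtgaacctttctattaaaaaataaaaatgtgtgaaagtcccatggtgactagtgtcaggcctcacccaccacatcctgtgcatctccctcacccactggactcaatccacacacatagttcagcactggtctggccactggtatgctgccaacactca
Klrk1: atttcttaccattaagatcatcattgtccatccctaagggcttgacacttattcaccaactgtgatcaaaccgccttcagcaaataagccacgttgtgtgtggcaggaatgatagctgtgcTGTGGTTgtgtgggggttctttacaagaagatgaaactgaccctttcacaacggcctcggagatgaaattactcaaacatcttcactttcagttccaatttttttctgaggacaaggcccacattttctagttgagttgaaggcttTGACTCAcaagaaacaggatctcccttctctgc

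Of the 10 genes, 9 had a promoter in the table. The RUNX letters stood in 4 of these 9 (Gzma, Gzmb, Klrk1 and Ncr1) and in 5.27% of 32851 promoters of the same length. The AP-1 letters stood in 2 (Gzmb and Klrk1; 7.81% of all), the T-box letters in 2 (Gzmk and Nkg7; 3.98%) and the ETS letters in Prf1 alone of the 9 (9.35%). The TATA letters (TATAAA, read on the strand of the gene) stood in 0 of the 9 and in 8.32% of all. Only this form was searched. The promoters of Gzma and Eomes hold the variant TATATAAG, which it does not match, so the 0 does not show that TATA boxes are absent. A match of letters is a description and not a measured binding site. Gzmb and Prf1 held no motif in common among those searched.

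The 10 genes spanned a wide range of levels per length. Gzmb had the highest mean over the 12 tumors (28.4 FPKM), followed by Prf1 (11.3 FPKM), Gzma (7.12 FPKM) and Nkg7 (2.92 FPKM). Ncr1 (1.07 FPKM) and Klrd1 (0.930 FPKM) followed, then Klrk1 (0.429 FPKM), Eomes (0.398 FPKM), Klrb1c (0.307 FPKM) and Gzmk (0.191 FPKM). The order was firm at 4 of its 9 steps. Gzmb exceeded Prf1, Gzma exceeded Nkg7, Nkg7 exceeded Ncr1 and Klrd1 exceeded Klrk1 in all 12 tumors. At the other steps the neighbours changed places between tumors: Prf1 was above Gzma in 9 of 12, Ncr1 above Klrd1 in 5, Klrk1 above Eomes in 6, Eomes above Klrb1c in 7 and Klrb1c above Gzmk in 8. The number of fragments behind a value ranged from 209 to 952 per tumor for Gzmb down to 1 to 18 for Gzmk, and no gene was at 0 in any tumor.

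**Figure D1:**
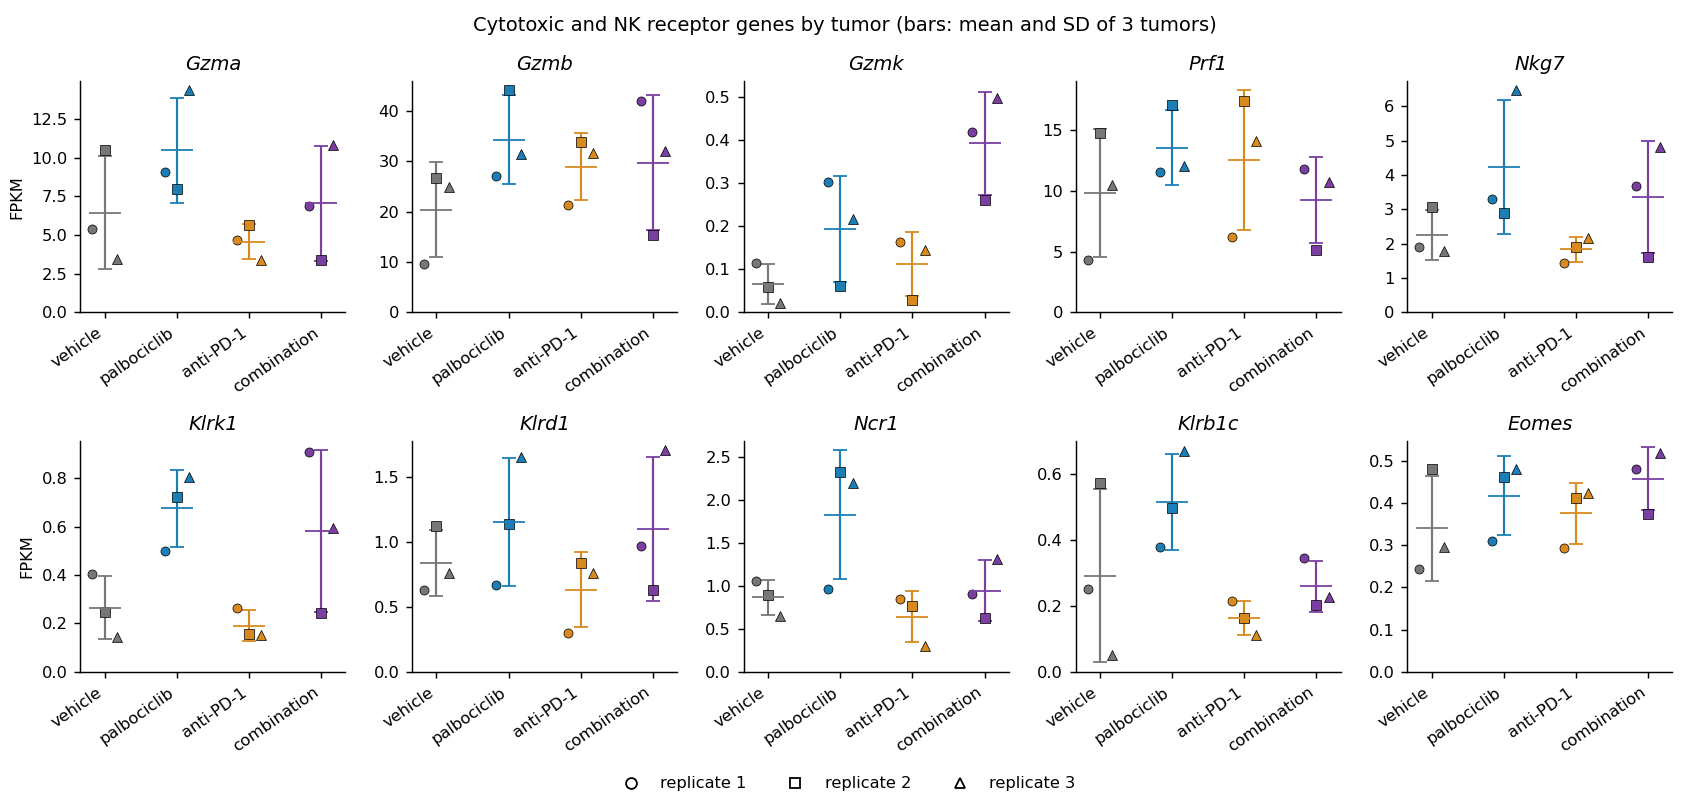
FPKM of each of the 10 genes (y axis, from 0) in the 3 tumors of each arm (x axis), with marker shapes for replicates and bars for the mean and SD. Palbociclib tumors lie high for most genes, for Gzmb between 27.2 and 44.3 FPKM, and combination replicate 2 (square) lies low for most.

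With palbociclib, each of the 10 genes had a higher mean log2 level than without it, and in no comparison did 1 of them pass the test. The palbociclib effect, the mean of palbociclib minus vehicle and combination minus anti-PD-1 over all 12 tumors, had a median of 0.65 on the log2(FPKM + 0.1) scale over the 10 genes. The median over all 15350 genes was 0.06, with 59.8% of all genes above 0 and 7.95% at or above 0.65. By limma with Benjamini-Hochberg adjustment over all genes, 0 of the 10 were called at an adjusted p of 0.05, against 0.313% of all genes, and 4 had an unadjusted p under 0.05 (20.5% of all genes did). With voom on recovered fragments, 0 of the 10 were called as well.

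Klrk1, which encodes the activating receptor NKG2D, came closest. Its levels were 0.404, 0.249 and 0.146 FPKM with vehicle, 0.5003, 0.723 and 0.807 FPKM with palbociclib, 0.264, 0.154 and 0.154 FPKM in the anti-PD-1 arm and 0.910, 0.243 and 0.595 FPKM in the combination arm. Each of the 3 palbociclib tumors was above all 3 vehicle tumors, and in the combination replicates 1 and 3 were above every anti-PD-1 tumor while replicate 2 was within their range. The palbociclib effect was 1.12 ± 0.29 (SE; 95% interval 0.49 to 1.75; limma adjusted p = 0.0917), a fold of 2.18. Its size depended on the pseudocount, from 0.40 with 1 to 1.41 with 0.01. Without vehicle replicate 1 the adjusted p was 0.0441 and without combination replicate 2 it was 0.0293, so the side of the threshold rests on single tumors. Without the 3 tumors highest in muscle, skin or fat genes it was 0.277.

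Gzmk encodes a tryptase-like granzyme typical of early effector and memory CD8 T cells. Its levels were 0.116, 0.058 and 0.0221 FPKM with vehicle, 0.304, 0.0602 and 0.216 FPKM with palbociclib, 0.164, 0.0274 and 0.145 FPKM in the anti-PD-1 arm and 0.419, 0.261 and 0.497 FPKM in the combination arm. The 3 combination tumors were above every vehicle and every anti-PD-1 tumor, and 2 of them were also above every palbociclib tumor. These values rest on 7 fragments over the vehicle arm, 21 over palbociclib, 14 over anti-PD-1 and 43 over the combination. The palbociclib effect was 1.01 ± 0.31 (SE; limma adjusted p = 0.125), and it was 0.24 with a pseudocount of 1 and 1.68 with one of 0.01.

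Nkg7, a granule membrane protein of T and NK cells, had 1.90, 3.08 and 1.79 FPKM with vehicle and 3.31, 2.90 and 6.49 FPKM with palbociclib. With anti-PD-1 it had 1.44, 1.92 and 2.16 FPKM, and with the combination 3.67, 1.60 and 4.82 FPKM. One palbociclib tumor was below the highest vehicle tumor, and combination replicate 2 was within the range of anti-PD-1. For Nkg7 the palbociclib effect was 0.78 ± 0.28 (SE; limma adjusted p = 0.172), and 1.21 without the 3 tumors highest in muscle, skin or fat genes.

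Ncr1, the NK receptor NKp46, had 1.06, 0.897 and 0.651 FPKM with vehicle and 0.970, 2.33 and 2.20 FPKM with palbociclib. With anti-PD-1 it had 0.854, 0.771 and 0.305 FPKM, and with the combination 0.903, 0.623 and 1.32 FPKM. Palbociclib replicates 2 and 3 stood above all other tumors, and replicate 1 was within the vehicle range. Over both pairs of arms, the palbociclib effect was 0.73 ± 0.29 (SE; limma adjusted p = 0.195), and 0.41 with a pseudocount of 1.

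Klrb1c (NK1.1) had 0.252, 0.572 and 0.0506 FPKM with vehicle, 0.380, 0.497 and 0.669 FPKM with palbociclib, 0.214, 0.164 and 0.111 FPKM in the anti-PD-1 arm and 0.346, 0.203 and 0.228 FPKM in the combination arm. The vehicle arm alone spanned most of the range of the gene, and every combination tumor was below every palbociclib tumor, as for 9.15% of all genes. Its palbociclib effect was 0.66 ± 0.33 (SE; limma adjusted p = 0.277), with 0.18 at a pseudocount of 1, 1.04 with voom and 0.38 without vehicle replicate 3. Klrd1 (CD94) had 0.627, 1.12 and 0.762 FPKM with vehicle, 0.665, 1.14 and 1.65 FPKM with palbociclib, 0.301, 0.837 and 0.757 FPKM in the anti-PD-1 arm and 0.965, 0.629 and 1.71 FPKM in the combination arm. The arms overlapped, and its palbociclib effect was 0.54 ± 0.31 (SE; limma adjusted p = 0.335), with 0.28 at a pseudocount of 1, 0.35 without anti-PD-1 replicate 1 and 0.87 without the 3 tumors highest in muscle, skin or fat genes.

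Gzma, which encodes a tryptase-like granzyme, had 5.37, 10.49 and 3.43 FPKM with vehicle, 9.06, 7.97 and 14.4 FPKM with palbociclib, 4.64, 5.65 and 3.38 FPKM in the anti-PD-1 arm and 6.90, 3.38 and 10.8 FPKM in the combination arm. Vehicle replicate 2 was above 2 of the 3 palbociclib tumors. For Gzma the palbociclib effect was 0.65 ± 0.32 (SE; limma adjusted p = 0.278), and 1.11 without the 3 tumors highest in muscle, skin or fat genes.

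Gzmb, the granzyme that cleaves caspases, had 9.52, 26.7 and 24.9 FPKM with vehicle, 27.2, 44.3 and 31.5 FPKM with palbociclib, 21.3, 33.8 and 31.7 FPKM in the anti-PD-1 arm and 41.9, 15.4 and 32.0 FPKM in the combination arm. The 3 palbociclib tumors were above the 3 vehicle tumors by a narrow margin, and the other arms overlapped. For Gzmb the palbociclib effect was 0.40 ± 0.30 (SE; 95% interval -0.27 to 1.07; limma adjusted p = 0.467), and 0.17 without vehicle replicate 1, 0.25 without combination replicate 1 and 0.61 without combination replicate 2.

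Prf1 (perforin) had 4.28, 14.8 and 10.49 FPKM with vehicle, 11.6, 17.1 and 12.02 FPKM with palbociclib, 6.18, 17.4 and 14.1 FPKM in the anti-PD-1 arm and 11.8, 5.16 and 10.8 FPKM in the combination arm. All 4 arms overlapped, and the lowest 3 tumors came from 3 different arms. Its palbociclib effect was 0.10 ± 0.35 (SE; 95% interval -0.66 to 0.86; limma adjusted p = 0.89) and changed sign when 1 of 3 tumors was left out: -0.15 without vehicle replicate 1, -0.12 without anti-PD-1 replicate 1 and -0.01 without combination replicate 1.

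Eomes had 0.244, 0.481 and 0.297 FPKM with vehicle, 0.311, 0.461 and 0.482 FPKM with palbociclib, 0.293, 0.412 and 0.423 FPKM in the anti-PD-1 arm and 0.481, 0.375 and 0.518 FPKM in the combination arm. Its highest tumor was 2.12 times its lowest, the narrowest range of the 10 genes. The arm means were 0.341 ± 0.125 with vehicle, 0.418 ± 0.0934 with palbociclib, 0.376 ± 0.0723 in the anti-PD-1 arm and 0.458 ± 0.0742 in the combination arm (SD, n = 3). Its palbociclib effect was 0.24 ± 0.19 (SE; limma adjusted p = 0.479), and 0.08 with a pseudocount of 1 or quantile normalization.

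**Figure D2:**
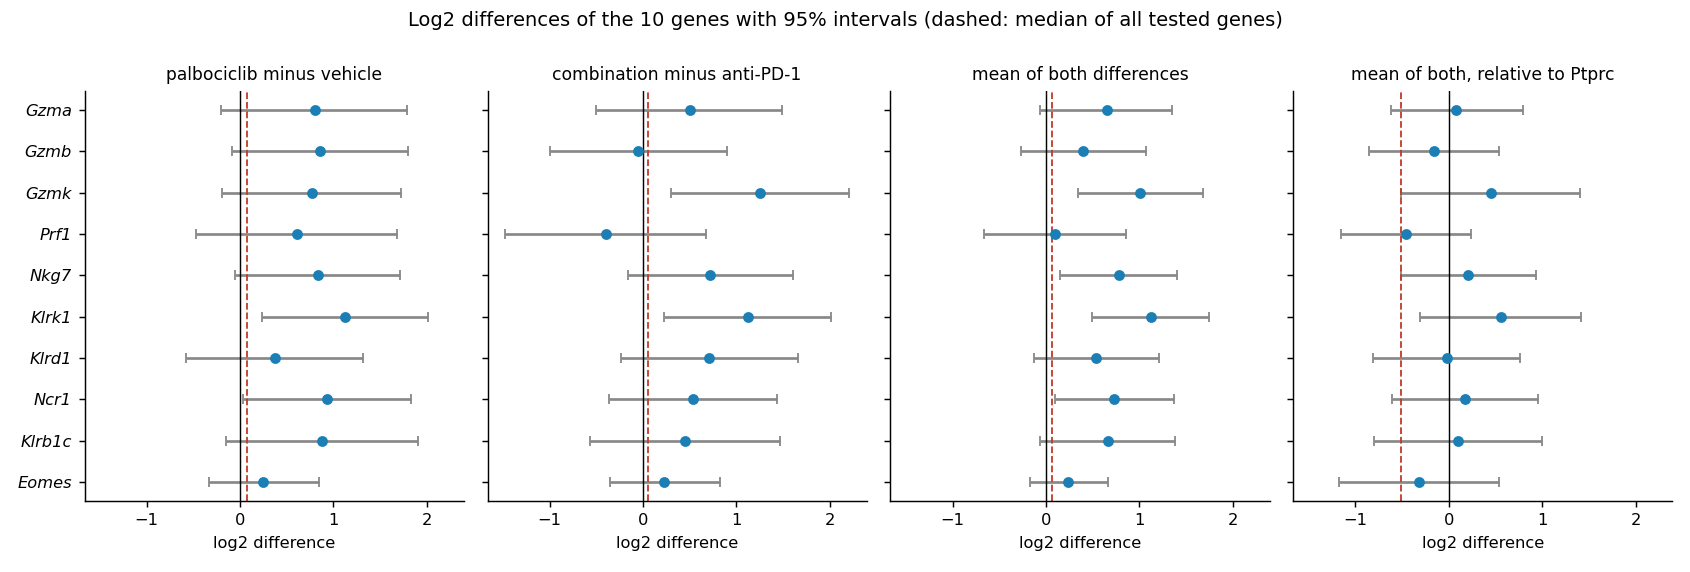
Log2 differences (x axis) of the 10 genes (y axis) with 95% intervals from limma, for palbociclib minus vehicle, combination minus anti-PD-1, the mean of both, and that mean after each tumor's Ptprc level was subtracted. The dashed line is the median of all tested genes, and Klrk1 (1.12) and Gzmk (1.01) lie farthest right in the third panel. Intervals in the fourth panel reflect a spread shared over genes rather than that of each gene.

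Palbociclib alone against vehicle gave differences above 0 for all 10 genes, from 0.25 for Eomes to 1.12 for Klrk1. Their median was 0.81 against 0.07 over all genes, of which 59.1% were above 0. By limma, 0 of 10 were called (0.143% of all genes were), with adjusted p from 0.305 to 0.691, and 2 had an unadjusted p under 0.05, against 13.8% of all genes. These were Klrk1 (1.12 ± 0.40, SE) and Ncr1 (0.93 ± 0.41, SE). Between them and Eomes were Klrb1c (0.88 ± 0.46), Gzmb (0.86 ± 0.43), Nkg7 (0.83 ± 0.40), Gzma (0.80 ± 0.45), Gzmk (0.77 ± 0.43), Prf1 (0.61 ± 0.49) and Klrd1 (0.37 ± 0.43). Every palbociclib tumor was above every vehicle tumor for Gzmb and Klrk1, 2 of 10 genes, and for 12.9% of all genes, so the count is close to the background.

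Anti-PD-1 alone against vehicle gave 4 differences above 0 and 6 below, with a median of -0.28 against -0.03 over all genes. Over all genes 44% were above 0, so the count is close to the background. They ran from -0.45 ± 0.41 (SE) for Ncr1 to 0.61 ± 0.43 for Gzmb. By limma, 0 of 10 were called and 0 had an unadjusted p under 0.05; 0% of all genes were called and 8.40% had an unadjusted p under 0.05. The 4 NK receptors were all below 0 and had a median of -0.38. The 5 granule effectors were split, with Gzmb, Prf1 and Gzmk above 0 and Gzma and Nkg7 below it, and had a median of 0.33.

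The combination against vehicle gave 9 differences above 0 (53.6% of all genes were), with a median of 0.33 against 0.03 over all genes. By limma 0 of 10 were called (0.013% of all genes were), and 1 had an unadjusted p under 0.05, against 17% of all genes. This was Gzmk, at 1.58 ± 0.43 (SE; adjusted p = 0.184), and Klrk1 followed at 0.83 ± 0.40 (SE; adjusted p = 0.32). Each combination tumor was above each vehicle tumor for Gzmk alone, 1 of 10 genes, and for 10.8% of all genes.

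The combination against anti-PD-1 gave 8 differences above 0 (57.4% of all genes were), with a median of 0.52 against 0.05 over all genes. By limma 0 of 10 were called (0.00651% of all genes were), and 2 had an unadjusted p under 0.05 (11.8% of all genes did), Gzmk (1.25 ± 0.43, SE; adjusted p = 0.337) and Klrk1 (1.12 ± 0.40, SE; adjusted p = 0.343). Nkg7 was at 0.72 ± 0.40 (SE; adjusted p = 0.492). Groups did not overlap for Gzmk alone, 1 of 10 genes, and for 11.4% of all genes with the combination higher. Against palbociclib alone, the combination gave 2 differences above 0 (41.7% of all genes were) and a median of -0.33 against -0.04 over all genes. The differences ran from -0.85 ± 0.41 (SE) for Ncr1 to 0.82 ± 0.43 for Gzmk. By limma 0 of 10 were called and 0 had an unadjusted p under 0.05, against 0.00651% of all genes called and 4.52% under unadjusted 0.05. These comparisons share arms, so their values stand side by side and are not independent.

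The interaction, combination minus anti-PD-1 less palbociclib minus vehicle, asks whether palbociclib moved a gene differently with the antibody on board. It was called by limma for 0 of 10 genes and 0% of all genes, and 0 of the 10 had an unadjusted p under 0.05, against 5.73% of all genes. It ran from -1.01 ± 0.69 (SE; 95% interval -2.53 to 0.52) for Prf1 and -0.91 ± 0.61 (SE; -2.24 to 0.43) for Gzmb to 0.49 ± 0.61 (SE; -0.86 to 1.84) for Gzmk. All 3 intervals include 0, and a p that misses the threshold at 3 tumors per arm does not show that the effects were alike.

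Leukocyte markers were higher in many of the same tumors. Ptprc (CD45), the pan-leukocyte transcript, was 1.48 to 2.11 FPKM with vehicle, 2.25 to 3.36 FPKM with palbociclib, 1.19 to 1.44 FPKM in the anti-PD-1 arm and 0.841 to 3.21 FPKM in the combination arm, with a palbociclib effect of 0.56 ± 0.28 (SE; adjusted p = 0.272). Its lowest value was in combination replicate 2, where 6 of the 10 genes were among their lowest 3 tumors. Muscle markers were high in that tumor and in palbociclib replicate 3, where 7 of the 10 genes were among their highest 3. The 7 T cell markers summed to 1.57 to 6.70 FPKM with vehicle, 7.27 to 14.8 FPKM with palbociclib, 1.65 to 3.85 FPKM in the anti-PD-1 arm and 4.331 to 14.04 FPKM in the combination arm. All 7 had a palbociclib effect above 0 (59.8% of all genes did), with a median of 1.46. All 7 had an unadjusted p under 0.05 (20.5% of all genes did), and 0 of 7 were called. The 4 mast cell markers (Cpa3 and others) went the same way, with a median of 3.04, and the 3 neutrophil markers were below 0, with a median of -1.41. Markers of muscle (1.58), skin (2.02), fat (3.31), B cells (0.96) and macrophages (0.64) had medians above 0, endothelial markers (-0.21) below it, and 0 genes of these lists were called. Skin markers summed to 315 FPKM in palbociclib replicate 2 and to 0.91 FPKM or less elsewhere. Fat markers summed to 139 FPKM in combination replicate 1, 55.8 FPKM in palbociclib replicate 1 and 3.57 FPKM or less elsewhere. Cd8b1 was at 0 in vehicle replicate 2, and the other 6 T cell markers were above 0 in all 12 tumors. The part of these cells in the values of the 10 genes was not tested.

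When each tumor's Ptprc level was subtracted, the median of the 10 genes was 0.09, against -0.51 over all genes. Above 0 were 6 of 10, and 9.49% of all genes. The subtraction lowers the difference of every gene by that of Ptprc, 0.56, and cannot change their order. Before and after it, 7.95% of all genes were at or above the median of the 10 genes. The gap between the 10 genes and all genes is thus the earlier one, and not a separate result. The differences ran from -0.46 ± 0.36 (SE) for Prf1 to 0.56 ± 0.44 for Klrk1, with 0.45 ± 0.49 for Gzmk. By limma 0 of 10 were called and 0 had an unadjusted p under 0.05, while 2.41% of all genes were called and 18% had an unadjusted p under 0.05. The subtracted term is shared by all genes, so their SEs were nearly equal, 0.358 to 0.554. The SEs printed here thus reflect a spread shared over genes rather than that of each gene. With each gene's own variance, 0 genes were called in all and 1 of the 10 had an unadjusted p under 0.05, so the 2.41% is not a firm background.

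How the 10 genes varied together over the tumors is described here without a test. Over 45 pairs of the 10 genes, Pearson r of log2(FPKM + 0.1) had a median of 0.51 (n = 12 tumors, from -0.26 to 0.89), and 0.40 after the arm means were removed. The values of a tumor share its library, its depth and its mix of cells. Gzmb and Prf1 had r of 0.89 (Spearman rho 0.78), 0.93 after the arm means were removed and 0.67 without the 2 tumors farthest from the median of Gzmb. Eomes was nearer to this pair (0.74 with Gzmb, 0.66 with Prf1) than to Ncr1 (0.28), and had 0.79 with Klrd1.

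Gzma had its highest r with Nkg7 (0.88, rho = 0.83), Klrb1c (0.83) and Ncr1 (0.77). Klrk1 ran with Ncr1 (0.77) but also with the T cell receptor chain Cd3e (0.87) and the mast cell protease Cpa3 (0.86), and its r with Prf1 was 0.07. Gzmk had 0.75 with Cd3e and -0.26 with Prf1, the lowest of the 45 pairs. The granule genes were thus not equally close to each other: Gzmb had 0.38 with Gzma and 0.51 with Nkg7.

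**Figure D3:**
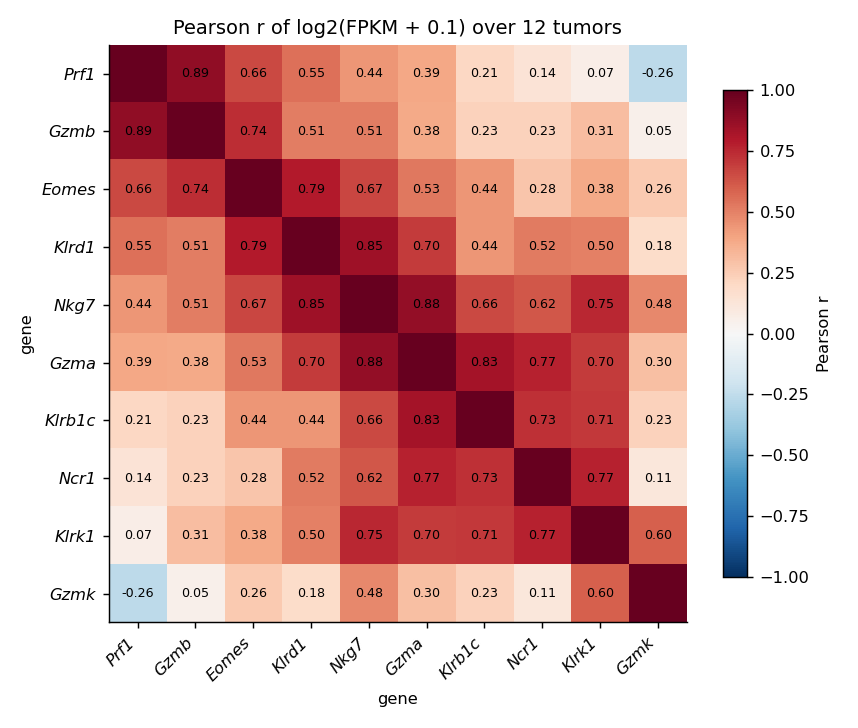
Pearson r of log2(FPKM + 0.1) over the 12 tumors for each pair of the 10 genes, colored from -1 to 1 and printed in each cell. The strongest pair is Gzmb with Prf1 (0.89), and Gzmk has the lowest values, down to -0.26 with Prf1.

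The neighbours of Gzmb in its cluster encode further granzymes, known from activated killer lymphocytes. They were above most lymphocyte markers in level per length. The means over 12 tumors were 67.6 FPKM for Gzmf, 61.4 FPKM for Gzmc, 49.9 FPKM for Gzmd, 48.9 FPKM for Gzmg and 20.5 FPKM for Gzme, against 1.08 FPKM for Cd3e and 1.07 FPKM for Ncr1, while the NK marker Klra4, at 21.3 FPKM, was level with Gzme. Gzmb alone was 7.30 to 132 times the level of Cd3e. Gzmd, Gzme and Gzmg share 4.75% to 6.83% of their 75-base windows with other genes, mainly with each other, and Gzmf 9.47% with Gm4022, so reads may be split among them, while Gzmb and Gzmc share none.

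The 5 neighbours summed to 75.4, 570.0 and 265 FPKM with vehicle, 156, 270.0 and 154 FPKM with palbociclib, 166, 471 and 376 FPKM in the anti-PD-1 arm and 187, 100 and 189 FPKM in the combination arm. Vehicle replicate 2 and anti-PD-1 replicates 2 and 3 were highest, and vehicle replicate 1 and combination replicate 2 lowest. Prf1 followed these genes closely, with r of 0.83 with Gzmc, 0.80 with Gzmd, 0.84 with Gzme, 0.78 with Gzmf and 0.72 with Gzmg (n = 12 tumors). Gzmb followed them less closely, with r of 0.54 to 0.70, and after the arm means were removed with r of 0.77 to 0.91. Without the 2 tumors farthest from the median of Gzmb, its r was 0.55 with Gzmc and 0.05 with Gzmd. With Gzme it was 0.12, with Gzmf -0.09 and with Gzmg -0.12. Leaving out tumors by their Gzmb level narrows its range, which can by itself lower r. The drop thus cannot show that the relation rests on those tumors. For Prf1 the same omission left r of 0.44 to 0.76.

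The summed level of the 5 neighbours over that of Gzmb in the same tumor was 7.92, 21.3 and 10.6 with vehicle and 7.80, 13.9 and 11.8 with anti-PD-1. It was 5.73, 6.11 and 4.88 with palbociclib and 4.46, 6.52 and 5.92 with the combination. The ratio of each of the 6 palbociclib-treated tumors (4.46 to 6.52) was below that of each of the 6 others (7.80 to 21.3). The ratio was chosen after its values were seen, so it has no test. None of the 6 other granzymes tested was called in the palbociclib effect, from -1.06 ± 0.62 (SE; adjusted p = 0.347) for Gzmg and -0.78 ± 0.57 (SE; adjusted p = 0.454) for Gzmf to -0.01 ± 0.32 (SE; adjusted p = 0.991) for Gzmc and 0.40 ± 0.34 (SE; adjusted p = 0.522) for Gzmm, which lies on another chromosome.

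**Figure D4:**
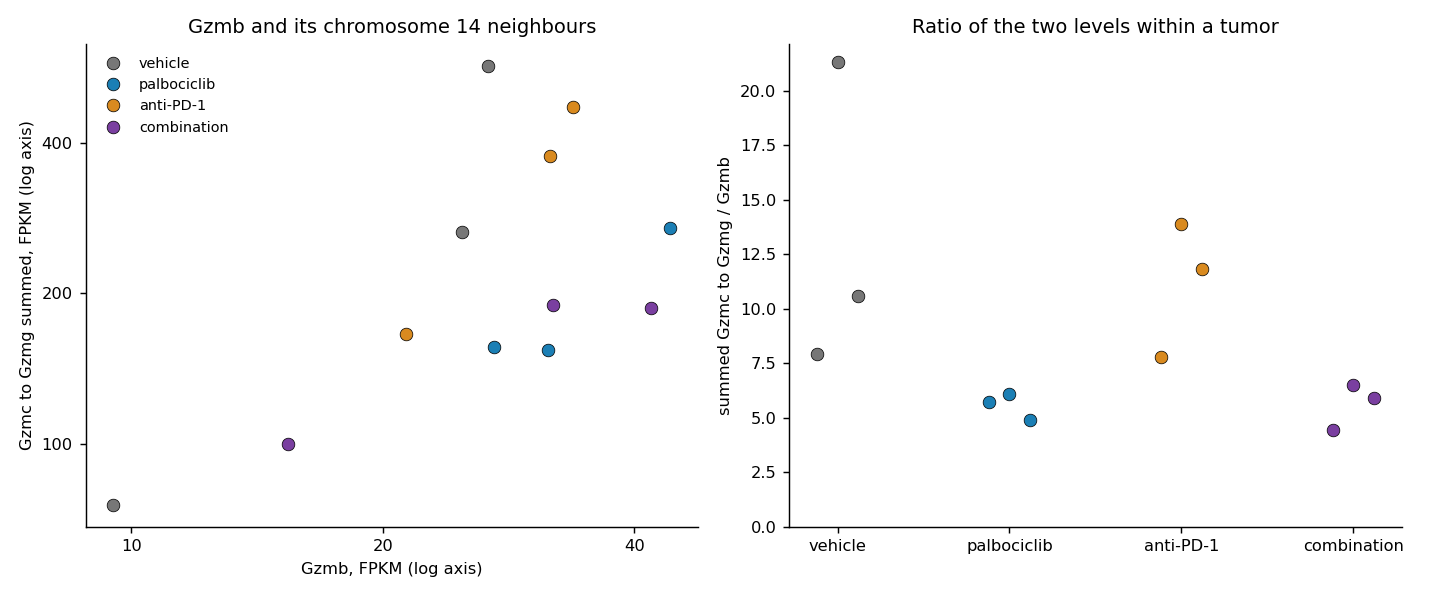
Left, summed FPKM of Gzmc to Gzmg (y axis, log) against Gzmb FPKM (x axis, log) in the 12 tumors. Right, the ratio of the 2 by arm: the 6 palbociclib-treated tumors lie between 4.46 and 6.52 and the 6 others between 7.80 and 21.3.

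**Figure D5:**
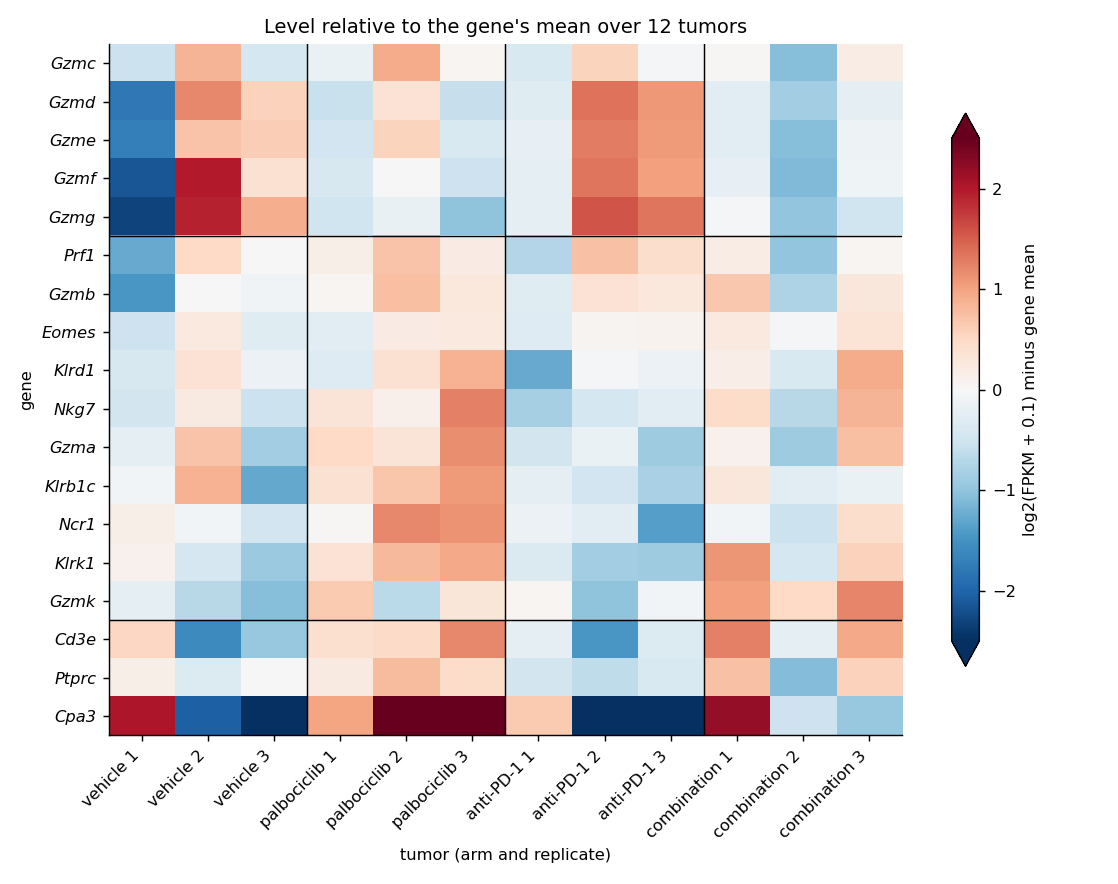
Log2(FPKM + 0.1) minus the mean of the gene (color) for the granzyme neighbours, the 10 genes and 3 cell markers (rows) in the 12 tumors (columns), with arms divided by lines. Gzmd, Gzmf and Gzmg are highest in vehicle replicate 2 and anti-PD-1 replicates 2 and 3, where Cd3e lies between 0.226 and 0.677 FPKM.

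The surrounding pathway was read from lists of genes, each by its count and median palbociclib effect. The background for every list is the share over all genes. There, 59.8% were above 0 (median 0.06), 20.5% had an unadjusted p under 0.05 by limma and 0.313% were called. Of 11 genes of granule biogenesis and release, 7 were above 0 (median 0.14), 0 were called, and 3 higher and 1 lower had an unadjusted p under 0.05. The granzyme-activating protease Ctsc was at 1.45 ± 0.44 (SE; adjusted p = 0.125), and the abundant genes Lamp1 (0.11), Vamp8 (-0.03) and Srgn (-0.32) were nearer to 0. Of 6 brakes on granzymes and perforin, 5 were above 0 (median 0.48), most had an unadjusted p under 0.05 and none was called. Among those above 0 was Serpinb9, the inhibitor of granzyme B, at 0.54 ± 0.19 (SE; adjusted p = 0.162). Ctsb was at 0.42, Serpinb6b at 0.21 and Serpinb9b at -0.33.

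Of 12 other tested genes listed as NK activating receptors, 10 were above 0 (median 0.66) and 6 had an unadjusted p under 0.05. Of 10 listed as NK inhibitory receptors, 8 were above 0 (median 0.10). The first list also holds receptors that can inhibit, so these medians do not separate the kinds cleanly. Called genes numbered 0 in both lists. The most abundant of the activating list were Fcgr3 (0.87), Klra4, Crtam (-0.22) and Slamf7 (0.81), and of the inhibitory list Lilrb4a (0.01), Tigit (-0.37), Klrg1 (0.11) and Klra7 (-0.05). Klra4, an activating Ly49 receptor, lay between 15.7 and 32.4 FPKM in all tumors, far above the other NK markers, with a palbociclib effect of 0.09 ± 0.15 (SE; adjusted p = 0.753). Il18rap was as even, from 37.3 to 65.5 FPKM (0.04 ± 0.13, SE; adjusted p = 0.888), as were Crtam (1.28 to 2.75 FPKM) and Tigit (3.98 to 7.83 FPKM). Which cells of the tumor carried these 4 transcripts was not tested, so their place in the NK lists is by name only. Klra4 made up most of the summed NK marker level, 19.4 to 20.4 FPKM with vehicle, 22.6 to 30.3 with palbociclib, 21.2 to 34.0 with anti-PD-1 and 19.8 to 26.7 in the combination arm. The 6 markers had a median palbociclib effect of 0.49. Ncr1, Klrb1c and Klrd1 are among these markers and also among the 10 genes, so this median is not a separate readout.

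Of 10 adaptors and kinases of these receptors, 9 were above 0 (median 0.70) and 7 had an unadjusted p under 0.05, with Tyrobp (DAP12) at 0.66 ± 0.21 (SE; adjusted p = 0.143). Fcer1g was at 0.98, Vav1 at 0.59 and Syk at 0.26. Of 10 cytotoxic transcription factors, 7 were above 0 (median 0.34), and an unadjusted p under 0.05 occurred in both directions. Nfil3, needed for NK development, was at -0.82 ± 0.24 (SE; adjusted p = 0.123), Id2 at 0.25, Irf8 at 0.72 and Zeb2 at 0.02, and 0 genes of either list were called. For their ties to members, 3 further genes are named, chosen after their values were seen. Klrc1, the NKG2A partner of Klrd1, was at 0.97 ± 0.30 (SE; adjusted p = 0.125), Hcst (DAP10), the partner of NKG2D, at 0.42 ± 0.27 (SE; adjusted p = 0.394), and Tbx21 (T-bet), the relative of Eomes, at 1.23 ± 0.28 (SE; adjusted p = 0.0816).

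Of the ligands of NKG2D, which stressed and tumor cells display, 3 were tested. Ulbp1 (0.18), Raet1e (0.02) and Raet1d (0.11) had a median palbociclib effect of 0.11 and a lowest adjusted p of 0.59. Of 13 genes of the IL-15, IL-12 and IL-18 axis, 11 were above 0 (median 0.39), 7 had an unadjusted p under 0.05 and 0 were called. Il2rg, the common cytokine receptor chain, was at 0.44 ± 0.12 (SE; adjusted p = 0.105), Stat5b at -0.13 and Jak3 at -0.41. Of 9 residency, homing and maturation receptors (Itgam 0.34, Itga1 0.04 and Cxcr6 1.35 among the most abundant), 9 were above 0 (median 0.67), 4 had an unadjusted p under 0.05 and 0 were called.

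Apart from the fit relative to Ptprc, the 1 call among the lists fell on a death ligand. The share called over all genes was 0.313% in the palbociclib effect and 0.143% for palbociclib against vehicle. Of 9 cytokines and death ligands, 7 were above 0 (median 0.75), and Tnfsf10 (TRAIL), a death ligand that NK and T cells use besides granules, was called higher. It had 0.816, 0.319 and 0.762 FPKM with vehicle, 2.62, 2.52 and 4.38 FPKM with palbociclib, 1.31, 0.807 and 0.720 FPKM in the anti-PD-1 arm and 1.97, 1.41 and 2.22 FPKM in the combination arm. The 6 palbociclib-treated tumors were all above the 6 others, as for 1.02% of all genes. Which cells of the tumor carried Tnfsf10 was not tested. For Tnfsf10 the palbociclib effect was 1.56 ± 0.24 (SE; limma adjusted p = 0.0399), and palbociclib against vehicle 2.20 ± 0.34 (SE; limma adjusted p = 0.0386). Both calls are fragile: the palbociclib effect kept its call in 10 of 22 alternatives (adjusted p 0.0145 to 0.176) and the comparison with vehicle in 7 of 23 (0.0261 to 0.248), with the direction the same in all. The effect lost its call when any 1 tumor was left out other than vehicle replicate 1, anti-PD-1 replicate 1 or combination replicate 2, and with no trend in the prior. Against vehicle it was lost without any 1 tumor other than anti-PD-1 replicate 1 or combination replicate 2, and with these arms fitted alone. The chemokines Ccl4 (-0.17), Ccl3 (-0.63) and Ccl5 (0.97) were more abundant and did not pass.

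Relative to Ptprc, 21 list genes passed, with the nearly equal SEs described above. Of the cytotoxic genes, Gzmd (-1.28), Gzmf (-1.35), Gzmg (-1.63), Nfil3 (-1.39) and Ccl3 (-1.19) were lower and Xcl1 (1.86) higher. The remainder were the markers Cd14, Csf3r, Cxcr2, S100a8 and Pecam1 (lower) and Cma1, Cpa3, Mcpt4, Tpsb2, Acta1, Krt5, Krt14, Adipoq, Plin1 and Cidec (higher). None of these calls held with each gene's own variance.

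The genes outside the set whose levels ran most like 4 of its members over the 12 tumors are given as a description, with no p, among genes of at least 1 FPKM on average. For Gzmb they were Oaz1 (r = 0.93), Padi2 (0.85), Gm7030 (0.83), Dtl (0.82) and Kctd15 (0.81). For Ncr1 they were Abhd16a (0.88), Mgl2 (0.87), Creb3 (0.87), Rassf5 (0.87) and Cst7 (0.86). For Gzmk they were Efcab11 (0.90), Ppt2 (0.89), Slc43a3 (0.89), Ncapg (0.86) and Gins3 (0.85), and for Eomes Zfp763 (0.89), Chac2 (0.81), AI464131 (0.81), Tmco4 (0.77) and Acsf3 (0.76). Cst7 encodes cystatin F, an inhibitor of granzyme-activating proteases, and was the only gene of the fixed lists among these 20.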

How the data were processed

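Total RNA of 12 subcutaneous tumors was sequenced as bulk libraries on the Illumina platform. Per the labels, the authors aligned reads with HISAT2 to GRCm38 (mm10) and deposited 1 FPKM table per tumor. The counting tool and the annotation are not given in the sources used here. Of entries that repeat a symbol, the one with the highest mean was kept (67 of 34745 dropped). Tumors were grouped by the treatment label. Whole fragments could be recovered from the steps in the FPKM values for 15348 of 15350 genes (within 0.05 of a whole number), which gave the depth per tumor. The gene lengths behind the FPKM equalled the merged exons of GENCODE M21 for 5.18% of genes, so comparisons of levels between genes rest on the lengths the authors used.

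Log2(FPKM + 0.1) of genes with a mean of at least 0.1 FPKM was modelled with 1 mean per arm over all 12 tumors by lmFit, contrasts.fit and eBayes (trend) of limma, version 3.58.1 (R, version 4.3.3). P-values of all tested genes were adjusted together after Benjamini and Hochberg. The script was tested on simulated data. A difference on this scale understates the change of low genes. Named were the 10 genes, up to 4 genes of the highest mean of each list plus any list gene with an adjusted p under 0.05, and the 5 genes most like each of Gzmb, Ncr1, Gzmk and Eomes, with 3 more chosen after their values were seen; a list gene the rule would name is not reported here. The genes and lists were chosen with earlier results of these data known. Alternatives were the pseudocount, the filter, the scaling, the prior, a replicate block, leaving out tumors, fits of 2 arms alone, and voom on recovered fragments. Voom, and the fit relative to Ptprc with each gene's own variance, were added after seeing the data. Python 3.11.15, pandas 2.3.3, numpy 2.4.6 and matplotlib 3.10.9 were used for the rest.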

Additional observations from a re-analysis of the deposited data

How the results depend on the processing

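Among the 10 genes, 0 were called in every comparison and alternative run, except Klrk1 in the palbociclib effect without vehicle replicate 1 or without combination replicate 2 (0 to 1 called when 1 tumor was left out). Of 771 values of the 35 printed differences under alternatives, 764 kept direction and side of the threshold, 2 passed it (Klrk1) and 5 changed sign. Prf1 in the palbociclib effect ran from -0.15 to 0.29 when 1 tumor was left out, and with a pseudocount of 1 Gzmk and Klrk1 relative to Ptprc were -0.17 and -0.02. Of the 45 differences not printed, 27 changed sign at least once. Counts over all genes depended on the setting. The palbociclib effect called 11 genes with any FPKM above 0, 0 with no trend in the prior, 2 without the 3 tumors highest in muscle, skin or fat genes, and 0 to 758 when 1 tumor was left out (758 without anti-PD-1 replicate 1, 692 without vehicle replicate 1, 264 without combination replicate 2). Palbociclib against vehicle called 1 with quantile normalization, 6 with no trend and 1 to 46 when 1 tumor was left out. The combination against vehicle called 5 with a pseudocount of 0.01, 1 with no trend and 0 to 5 when 1 tumor was left out. The combination against palbociclib called 2 with a filter of 1 FPKM, 5 with any FPKM above 0, 2 as TPM, 3 without the 3 tumors and 1 to 4 when 1 was left out. The combination against anti-PD-1 called 2 with any FPKM above 0, 2 without the 3 tumors and 0 to 6 when 1 was left out. Anti-PD-1 against vehicle called 1 with any FPKM above 0 and 0 to 1 when 1 was left out. The interaction called 1 with a pseudocount of 0.01, 2 with a filter of 1 FPKM, 7 with any FPKM above 0, 1 as TPM, 2 with quantile normalization, 2 without the 3 tumors, 2 with voom and 0 to 3 when 1 was left out. Relative to Ptprc, 222 were called with a filter of 1 FPKM, 9817 without the 3 tumors, 0 with each gene's own variance and 164 to 12231 when 1 was left out (the latter without combination replicate 2). Fitted on the 2 arms alone, palbociclib or the combination against vehicle, and the combination against palbociclib or anti-PD-1, called 0. The causes of these changes were not tested.

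The replicate block called 51 genes for palbociclib against vehicle, 1 for the combination against vehicle and 129 for the palbociclib effect, and 0 of the 10 genes in each. The labels do not say whether the numbers pair the tumors. Deviations of same-numbered tumors from their arm means correlated from -0.21 to 0.45 (median 0.03, over 0.1 in 7 of 18 pairs). Pairs with other numbers ran from -0.35 to 0.31 (median -0.01, over 0.1 in 9 of 36 pairs). These values do not settle the question. Depth limits Gzmk most, with 1 to 18 fragments per tumor, then Klrb1c with 5 to 54 and Ncr1 with 9 to 58. With 3 tumors per arm, the 95% interval of the palbociclib effect was -0.66 to 0.86 for Prf1 and -0.17 to 0.66 for Eomes, the widest and the narrowest of the 10.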
